A study of Mus musculus with 20 samples.

Results

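The genes of major histocompatibility complex (MHC) class I and of its peptide loading route were followed in dCAMs, the CNS-associated macrophages sorted from cranial dura, of mice that had received bacterial lipopolysaccharide (LPS) or PBS (CTL). The members were 10 genes chosen by name, H2-K1, H2-D1, B2m, Tap1, Tap2, Tapbp, Psmb8, Psmb9, Psmb10 and Nlrc5. They stand among 33243 gene symbols in the table, of which 16632 were tested, and all 10 were among those. With LPS the heavy chain H2-K1, the light chain B2m, the transporter subunit Tap1 and the loading factor Tapbp were higher in both dCAM populations, while the catalytic subunit Psmb9 differed little in mean level. In the tdT- population, defined below, Tap1 passed narrowly (edgeR adjusted p 0.0494, under 0.05 in 6 of 22 other settings).

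All mice carried Ccr2creERT2/+ R26tdT/tdT, in which tamoxifen switches on the red fluorescent protein tdTomato (tdT) in any cell expressing Ccr2 during that window. All were depleted of macrophages with the CSF1R inhibitor BLZ945 (200 mg per kg, 7 days), were given tamoxifen (2 mg per day) on the last of those days and 2 and 4 days later, and were injected 8 weeks after the last gavage with LPS (2.5 mg per kg) or PBS. From each dura, taken 12 h later, tdT+ and tdT- dCAMs (CD45int CD11b+ CD206int-high) were sorted into separate libraries, which gave 20 libraries from 10 mice, 5 in each of 4 groups. Values are listed in the order of mouse 174, 175, 177, 178 and 179 for CTL and of mouse 54, 56, 59, 60 and 61 for LPS. CTL therefore stands for PBS after depletion, and no mouse without BLZ945 was among these samples. The Cre is under the control of Ccr2, so that a tdT- cell is one without recombination around the time of tamoxifen, and the labels do not give the age of the mice.

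MHC class I molecules carry peptides from the inside of a cell to its surface, where CD8 T cells read them. The peptides are cut by the proteasome, whose constitutive catalytic subunits Psmb6, Psmb7 and Psmb5 are replaced in the immunoproteasome by Psmb9, Psmb10 and Psmb8. The transporter made of Tap1 and Tap2 moves them into the endoplasmic reticulum, where tapasin (Tapbp) holds the transporter next to empty class I molecules. Such a molecule is a heavy chain (H2-K1 or H2-D1) with beta-2-microglobulin (B2m), and Nlrc5 is a transactivator of this set of genes. MHC class II, whose transactivator is Ciita, presents peptides from outside the cell to CD4 T cells.

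Library totals ranged from 6649046 to 9495177 counts in tdT- CTL, from 6017650 to 12208203 in tdT+ CTL, from 12177799 to 16477892 in tdT- LPS and from 12073566 to 18925908 in tdT+ LPS, so depth and treatment went together. Genes with at least 10 counts numbered 6671 to 9365 in tdT- CTL and 10024 to 11032 in tdT+ CTL, at totals that overlapped, and 10930 to 11812 in tdT- LPS and 11250 to 11987 in tdT+ LPS. The tdT- CTL libraries therefore stood apart in every contrast that uses them. All 13 border macrophage markers listed, such as Mrc1, were above 3 counts in every library. Their summed level was lower with LPS (17164 to 23880 counts per 1e+06 counts of a library (CPM) in tdT- and 21972 to 27616 CPM in tdT+) than in CTL (35505 to 70387 and 62930 to 77501 CPM). Of the 13, 10 were lower at an edgeR adjusted p under 0.05 in each population. A log2 fold change above 0 was seen for 2 in tdT- and 1 in tdT+. Mean Pf4 went from 1418 to 1536 CPM in tdT- and from 1636 to 2197 CPM in tdT+, and mean Cd163 from 153 to 225 CPM in tdT-. The 6 dendritic cell markers summed to between 618 and 3329 CPM in tdT- CTL and to between 51.2 and 77.1 CPM in tdT+ CTL, and to 262 to 638 and 11.4 to 52.5 CPM in tdT- and tdT+ LPS, with Xcr1 at or under 3 counts in all 4 groups. The 5 B cell markers summed to between 689 and 1099 CPM in tdT- CTL and 608 and 1334 CPM in tdT+ CTL, against 13.8 to 40.7 and 13.2 to 32.5 CPM in tdT- and tdT+ LPS, with Ms4a1 at or under 3 counts in all tdT- CTL libraries. The 5 monocyte markers summed to between 548 and 1095 CPM in tdT- CTL and 160 and 467 CPM in tdT+ CTL, and to 294 to 755 and 157 to 306 CPM in LPS. The 5 fibroblast markers reached 3993 CPM in the tdT- library of mouse 179, against 10.9 to 876 CPM in the other tdT- CTL libraries. The 7 neutrophil markers summed to between 434 and 1087 CPM in the LPS libraries and to between 67.1 and 195 CPM in the CTL libraries. Of these 7, 5 in tdT- and 4 in tdT+ had a log2 fold change above 0. Ly6g was at or under 3 counts in all libraries of both CTL groups and of tdT+ LPS, and Mmp8 in those of both CTL groups. The part of these other cells and of the number of genes detected in the results below was not tested, and in bulk RNA fewer cells of a type and less RNA per cell cannot be told apart.

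The members lie in 3 places. H2-K1 (chr17:33996017-34000347, minus strand), Tapbp (chr17:33915899-33929292), Psmb9 (chr17:34181987-34187764, minus strand), Tap1 (chr17:34187553-34197225), Psmb8 (chr17:34197721-34201454), Tap2 (chr17:34203527-34216321) and H2-D1 (chr17:35262730-35267499) are in the MHC on chromosome 17. Psmb10 (chr8:105935735-105938444, minus strand) and Nlrc5 (chr8:94434356-94527272) are on chromosome 8, and B2m (chr2:122147686-122153083) is on chromosome 2. Genes without a strand given are on the plus strand, and all positions are from GENCODE M21 on GRCm38.

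RefSeq promoters (GRCm38.p6, 250 bases before to 50 bases after the start) were at hand for 8 of the members, and not for Tap2 and Nlrc5. They are shown for the heavy and light chains, whose levels moved by similar amounts, and for Tap1, which shares its promoter with Psmb9. Capitals mark matches to the kappaB motif GGGNNTTCC in H2-K1 and H2-D1 and to the interferon-stimulated response element (ISRE, here GAAA and a further GAAA with NN between them) in B2m, each searched on both strands.
H2-K1, chr17:34000298-34000597, minus strand: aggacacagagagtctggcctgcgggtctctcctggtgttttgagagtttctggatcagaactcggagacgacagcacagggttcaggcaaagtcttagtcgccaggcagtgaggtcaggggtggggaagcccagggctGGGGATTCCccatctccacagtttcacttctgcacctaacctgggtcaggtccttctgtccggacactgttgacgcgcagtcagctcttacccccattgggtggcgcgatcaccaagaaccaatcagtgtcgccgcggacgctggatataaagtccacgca
H2-D1, chr17:35262844-35263143, plus strand: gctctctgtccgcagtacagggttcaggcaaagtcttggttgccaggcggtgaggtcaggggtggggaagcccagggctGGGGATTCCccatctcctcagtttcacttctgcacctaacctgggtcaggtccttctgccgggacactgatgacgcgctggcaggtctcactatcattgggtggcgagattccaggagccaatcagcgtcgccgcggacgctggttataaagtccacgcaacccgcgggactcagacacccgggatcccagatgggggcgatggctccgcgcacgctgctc
B2m, chr2:122147437-122147736, plus strand: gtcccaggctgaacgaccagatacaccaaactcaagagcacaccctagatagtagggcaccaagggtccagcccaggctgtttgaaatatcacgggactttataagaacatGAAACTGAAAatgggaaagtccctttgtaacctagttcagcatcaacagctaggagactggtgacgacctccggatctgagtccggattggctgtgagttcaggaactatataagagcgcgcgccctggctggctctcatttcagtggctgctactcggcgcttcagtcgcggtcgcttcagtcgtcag
Tap1, chr17:34187306-34187605, plus strand: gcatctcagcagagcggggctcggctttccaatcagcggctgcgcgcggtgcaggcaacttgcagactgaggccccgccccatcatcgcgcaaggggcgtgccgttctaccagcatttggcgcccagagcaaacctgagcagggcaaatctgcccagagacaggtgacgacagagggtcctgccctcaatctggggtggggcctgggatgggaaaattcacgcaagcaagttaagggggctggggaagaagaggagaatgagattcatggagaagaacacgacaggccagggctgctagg

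The kappaB letters were the same in the promoters of both heavy chains, which is a description of the sequence and not of binding. Of the 8 members with a promoter, 2 matched the kappaB letters exactly (H2-K1 and H2-D1) and 1 the ISRE letters (B2m), against 5.82% and 3.44% of all 32851 promoters. Variants of these letters were not searched, so a promoter without a match can still hold a site of either kind. The interferon-gamma activated site TTCNNNGAA was in 1 of the 8 (Psmb8) and in 8.3% of all promoters. TGACG was in 5 of the 8 (20.8% of all) and CCAAT in 6 of the 8 (37.4% of all). Members were counted by gene and the background by promoter. Tap1 and Psmb9 enter both of these counts by the same sites, which lie where their windows overlap. The promoters of Psmb5 and Psmb6 held TGACG as well, but not CCAAT. The windows of Tap1 and Psmb9 overlapped by 275 bases on opposite strands, so the sequence printed for Tap1 also holds most of the Psmb9 promoter, and 212 bases of their exons overlap as well. The library kit does not mark strand, and reads from those 212 bases cannot be assigned to either gene.

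Per kilobase of exon the members spanned a wide range of levels in tdT- CTL dCAMs, from B2m at 7624 ± 1301 CPM per kilobase to Nlrc5 at 1.2 ± 2.19 CPM per kilobase (SD, n = 5). H2-D1 (1518 ± 375 CPM per kilobase) and H2-K1 (1049 ± 202 CPM per kilobase) followed B2m. The levels per kilobase of Psmb8 (217 ± 44.1), Psmb9 (157 ± 37.5), Psmb10 (122 ± 56) and Tapbp (113 ± 30.2) overlapped with their neighbours in this order, as did Tap1 (62.3 ± 19.4) and Tap2 (37.1 ± 13.7). By mean CPM over all libraries B2m ranked 7 and H2-D1 ranked 19 of the 16632 genes, and Nlrc5 ranked 4085. Of the windows of 50 bases in its transcripts, H2-D1 shared 13.9% with other genes, most often H2-Q1, and H2-K1 shared 6.87%, most often with H2-D1, so that reads of the heavy chains can be split or lost in counting.

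The heavy chains rose with LPS in both populations. H2-K1 measured 2009.8, 1459, 1777, 2098 and 1333 CPM in tdT- CTL and 2176, 2726, 2491, 2631 and 3079 CPM in tdT- LPS. Among tdT+ libraries H2-K1 measured 1721, 1570.0, 1124, 1259.5 and 1173 CPM in CTL and 1971, 2398, 2471, 2634 and 2673 CPM in LPS. In both populations the lowest LPS library was above the highest CTL library. The fitted log2 fold change of H2-K1 was 0.59 (SE 0.148, edgeR adjusted p 0.00993) in tdT- and 0.83 (SE 0.148, edgeR adjusted p 0.000784) in tdT+ dCAMs.

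H2-D1, the other classical heavy chain, measured 4598, 2868, 2758, 2871 and 2861 CPM in tdT- CTL and 4178, 4919.8, 4366, 4702 and 4918 CPM in tdT- LPS. Its tdT+ values were 4315, 3161, 2535, 2851 and 2548 CPM in CTL and 3909, 4385, 4258, 4458 and 4626 CPM in LPS. In both populations the CTL library of mouse 174 lay within the LPS range, and the other 4 CTL libraries lay below it. The log2 fold change was 0.53 (SE 0.146, edgeR adjusted p 0.0189) in tdT- and 0.49 (SE 0.146, edgeR adjusted p 0.0474) in tdT+ dCAMs. The call at 0.05 in tdT+ dCAMs held in 7 of 22 other settings.

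The light chain B2m measured 6000.0, 5721, 7495, 8011 and 5554 CPM in tdT- CTL and 7847, 9431, 8388, 10225 and 10601 CPM in tdT- LPS. The tdT+ libraries held 6079, 5694, 5337, 5335 and 5201 CPM in CTL and 7719, 7885, 8766, 9181 and 9464 CPM in LPS. The groups did not overlap in tdT+ dCAMs, whereas the tdT- CTL library of mouse 178 exceeded the lowest LPS library. The log2 fold change was 0.50 (SE 0.106, edgeR adjusted p 0.00282) in tdT- and 0.64 (SE 0.107, edgeR adjusted p 0.000366) in tdT+ dCAMs.

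**Figure D1:**
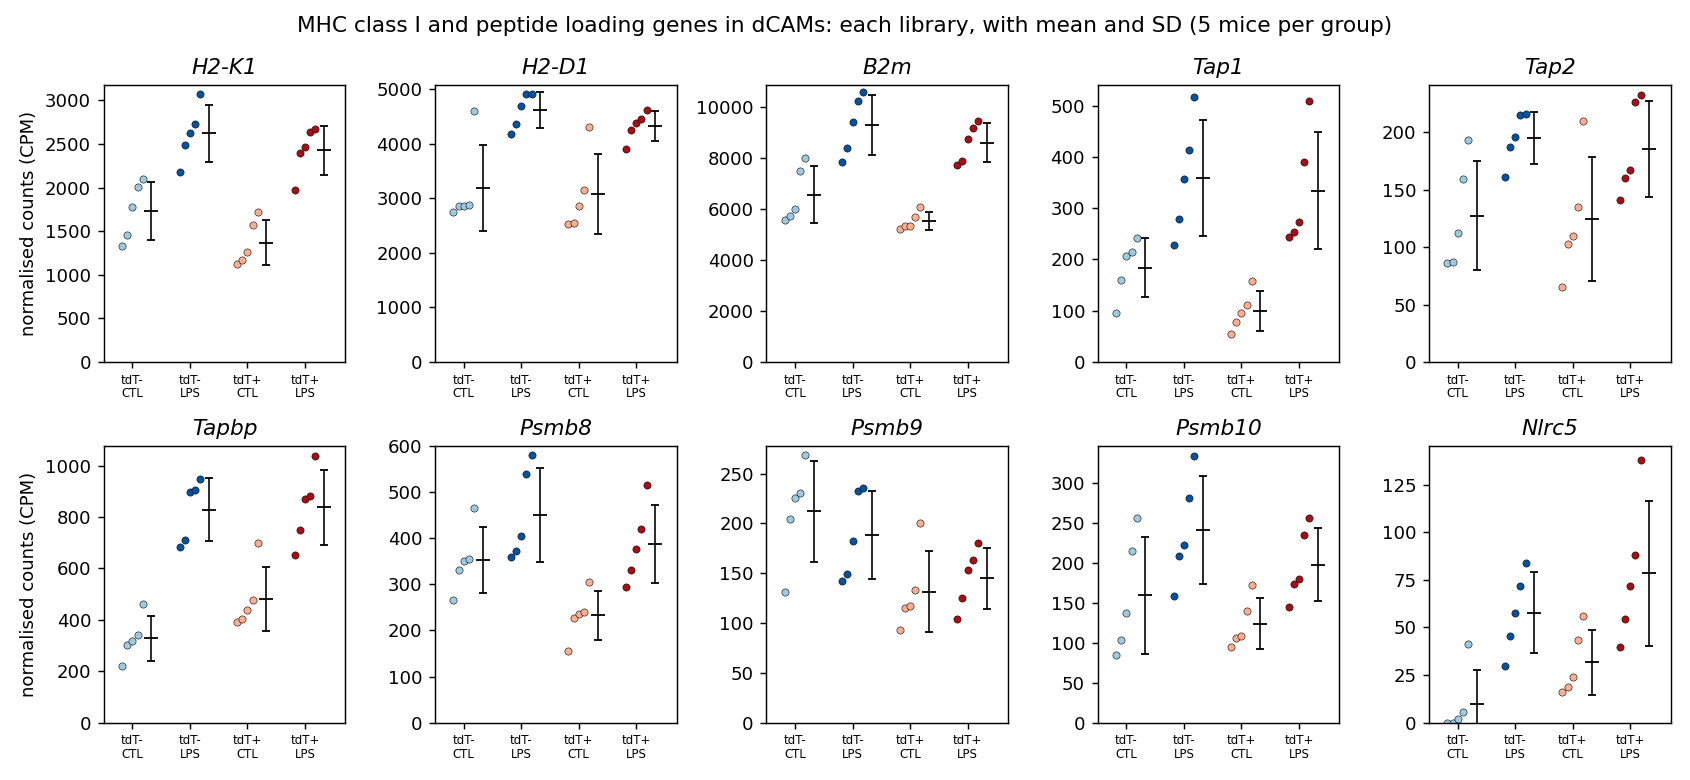
Normalised counts (CPM, y axis from 0) of the 10 members in every library, by population and treatment, with the mean and SD of 5 mice beside the points (the lower SD arm of Nlrc5 in tdT- CTL runs below 0 and is cut). The LPS libraries lie above all CTL libraries for H2-K1 in both populations, for Tapbp in tdT- and for B2m and Tap1 in tdT+ dCAMs, and those of Psmb9 overlap the CTL libraries.

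Of the peptide transporter, Tap1 rose in both populations. It measured 207, 215, 95.9, 160.2 and 242 CPM in tdT- CTL and 279, 228, 357, 414 and 518 CPM in tdT- LPS. Tap1 in tdT+ dCAMs stood at 158, 111, 77.4, 96.1 and 54.0 CPM in CTL and 244, 254, 273, 390.2 and 510.1 CPM in LPS. Every tdT+ LPS library exceeded every tdT+ CTL library, and in tdT- dCAMs the groups overlapped by the library of mouse 56. The log2 fold change of Tap1 was 1.75 (SE 0.323, edgeR adjusted p 0.00102) in tdT+ dCAMs, a 3.37-fold difference. In tdT- dCAMs it was 0.97 (SE 0.316, edgeR adjusted p 0.0494), and that adjusted p was under 0.05 in 6 of 22 other settings.

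Tap2, the partner subunit, measured 86.3 to 193 CPM in tdT- CTL and 161 to 216 CPM in tdT- LPS, and 65.3 to 209.6 CPM in tdT+ CTL and 141 to 233 CPM in tdT+ LPS. The groups overlapped in both populations. Its log2 fold changes were 0.61 (95% interval -0.0020 to 1.23) in tdT- and 0.57 (95% interval -0.041 to 1.19) in tdT+ dCAMs, and neither passed the test (edgeR adjusted p 0.167 and 0.298). Both intervals hold 0 as well as a log2 change of 1.

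Tapbp rose in both populations. It measured 462, 301, 219.9, 342 and 319 CPM in tdT- CTL and 685, 711, 949, 904 and 898 CPM in tdT- LPS, without overlap. The tdT+ values were 697, 477, 393, 403 and 440.2 CPM in CTL and 749.6, 651, 882, 869.6 and 1037 CPM in LPS, where the CTL library of mouse 174 reached into the LPS range. The log2 fold change was 1.33 (SE 0.203, edgeR adjusted p 0.000119) in tdT- and 0.80 (SE 0.201, edgeR adjusted p 0.0163) in tdT+ dCAMs.

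The immunoproteasome subunits moved less evenly. Psmb8 measured 465, 330.0, 354, 351 and 265 CPM in tdT- CTL and 404, 359, 372, 579 and 539 CPM in tdT- LPS. Psmb8 in tdT+ dCAMs reached 306, 241, 235, 227 and 155 CPM in CTL and 377, 294, 330.2, 514 and 419.8 CPM in LPS. The groups overlapped in both populations. Psmb8 rose in tdT+ dCAMs (log2 fold change 0.74, SE 0.216, edgeR adjusted p 0.0431, under 0.05 in 9 of 22 other settings). In tdT- dCAMs its log2 fold change was 0.35 (95% interval -0.097 to 0.80, edgeR adjusted p 0.279).

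Psmb9 measured 230.0, 132, 269, 225 and 204 CPM in tdT- CTL and 182, 149, 142, 236 and 232 CPM in tdT- LPS. In tdT+ dCAMs it measured 200.1, 133, 117, 115 and 92.5 CPM in CTL and 154, 104, 125, 180.1 and 163 CPM in LPS. In each population the ranges of the 2 treatments overlapped over most of their length. The log2 fold change was -0.17 (95% interval -0.71 to 0.36) in tdT- and 0.14 (95% interval -0.40 to 0.68) in tdT+ dCAMs, with edgeR adjusted p of 0.703 and 0.888. Psmb9 was under an adjusted p of 0.05 in 0 of 22 other settings in either population.

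Psmb10 measured 84.6 to 256 CPM in tdT- CTL and 159 to 334 CPM in tdT- LPS, and 94.7 to 172 CPM in tdT+ CTL and 145 to 256 CPM in tdT+ LPS. The ranges overlapped in both populations. Its log2 fold changes of 0.60 (95% interval -0.031 to 1.22) in tdT- and 0.67 (95% interval 0.046 to 1.30) in tdT+ dCAMs did not pass after adjustment (edgeR adjusted p 0.187 and 0.218).

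Nlrc5 was the lowest and the least even member. It measured 0, 5.38, 1.84, 41.3 and 0 CPM in tdT- CTL and 57.4, 29.9, 45.7, 72.0 and 83.9 CPM in tdT- LPS. In tdT+ dCAMs it measured 18.7, 56.0, 16.3, 43.4 and 23.8 CPM in CTL and 39.8, 54.4, 71.7, 88.1 and 138 CPM in LPS. A count of 0 allows up to 3 counts, and mouse 178 alone brought the tdT- CTL group into the LPS range. The log2 fold change was 2.57 (SE 1.08, edgeR adjusted p 0.119) in tdT- and 1.31 (SE 1.03, edgeR adjusted p 0.575) in tdT+ dCAMs. Without mouse 178 the value in tdT- dCAMs was 4.94 with an edgeR adjusted p of 0.00463. With mouse as a replicate block it was 5.54 in limma-voom (adjusted p 0.00104) and 5.00 in limma on log2 CPM, a fit added after seeing the data (adjusted p 0.00183).

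Over the 10 members, an adjusted p under 0.05 was reached by 5 in tdT- dCAMs and by 6 in tdT+ dCAMs, all higher with LPS, where 7.67% and 3.79% of all genes tested were higher at that threshold. With the further demand of an absolute log2 fold change over 1, the call used below, 1 member passed in tdT- dCAMs (Tapbp, 11.5% of all genes called) and 1 in tdT+ dCAMs (Tap1, 5.89% of all genes called), which is near the share of all genes. The median log2 fold change of the members was 0.60 in tdT- and 0.71 in tdT+ dCAMs, and over all genes tested it was 0.022 and 0.0084. This contrast in tdT- dCAMs depended on the fit. In the 4 limma and voom fits the median of all genes there was 0.634 to 0.764, above the 0.602 to 0.641 of the members, of which 3 to 4 exceeded it, whereas in tdT+ dCAMs it was 0.111 to 0.167 and that of the members 0.709 to 0.815. LPS libraries lay above all CTL libraries for 2 members in tdT- dCAMs (9.32% of all genes) and for 3 in tdT+ dCAMs (10.6%). Across 22 other settings of filter, scaling, model or mice the number of members higher at an adjusted p under 0.05 ranged from 2 to 6 in tdT- and from 3 to 8 in tdT+ dCAMs, with 0 lower.

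**Figure D2:**
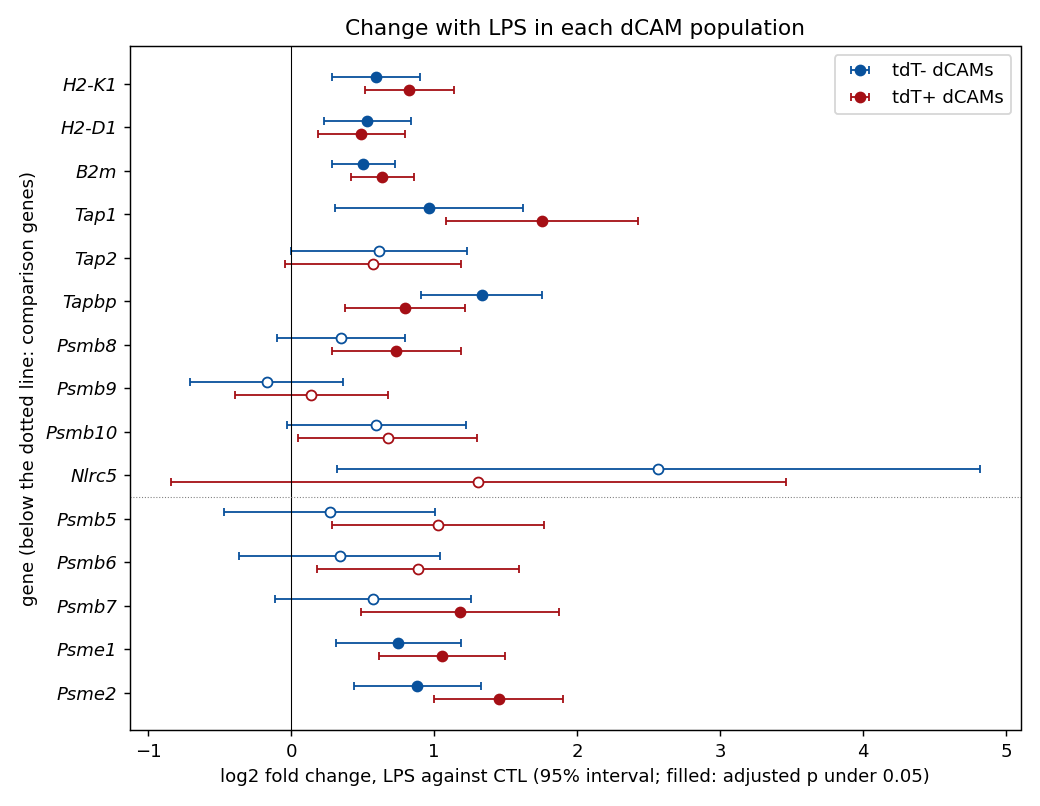
Log2 fold change of LPS against CTL (x axis) with its 95% interval for the members and for the proteasome genes Psmb5, Psmb6, Psmb7, Psme1 and Psme2, in tdT- and tdT+ dCAMs. Filled points have an adjusted p under 0.05, and the points of Psmb9 (-0.17 and 0.14) lie nearest to 0 among the members.

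The constitutive subunits stood beside the immunoproteasome ones. Psmb7, the counterpart of Psmb10, rose in tdT+ dCAMs from 30.5 ± 6.36 to 69.1 ± 6.03 CPM (SD, n = 5, log2 fold change 1.18, SE 0.333, edgeR adjusted p 0.0345). Psmb5 and Psmb6 had log2 fold changes of 1.03 and 0.89 in tdT+ dCAMs, with edgeR adjusted p of 0.104 and 0.142. In tdT- dCAMs the log2 fold changes of Psmb5, Psmb6 and Psmb7 were 0.27, 0.34 and 0.57 and none passed (edgeR adjusted p 0.655, 0.535 and 0.245).

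Ratios within a library do not depend on its total. The log2 ratio of Psmb9 to Psmb6 was 0.076 ± 0.298 in tdT+ CTL and -0.67 ± 0.278 in tdT+ LPS (SD, n = 5), a difference of -0.75 with an exact two-sided permutation p of 0.0159 and a Benjamini-Hochberg adjusted p of 0.127 over the 8 ratios tested. The smallest p that 5 against 5 libraries allow is 0.00794. In tdT- dCAMs the same difference was -0.79 (0.398 ± 1.08 in CTL and -0.40 ± 0.349 in LPS, n = 5, exact permutation p 0.175, adjusted p 0.429). The tdT- CTL library of mouse 174 was at 2.08 and the others lay between -0.39 and 0.89, and without that mouse the difference was -0.37 (exact permutation p 0.310). The ratio of Psmb8 to Psmb5 differed by -0.061 in tdT- and -0.31 in tdT+ dCAMs, and that of Psmb10 to Psmb7 by 0.015 and -0.52, and none of these passed the exact permutation test (adjusted p 0.913, 0.429, 0.913 and 0.349).

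The summed heavy chains were also set against the light chain. The log2 ratio of H2-K1 plus H2-D1 to B2m was -0.42 ± 0.346 in tdT- CTL and -0.36 ± 0.083 in tdT- LPS, and -0.34 ± 0.211 in tdT+ CTL and -0.35 ± 0.0735 in tdT+ LPS (SD, n = 5). Differences of 0.060 and -0.011 lay within the spread of the libraries (exact permutation p 0.825 and 0.913).

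Tap1 and Psmb9, which start 226 bases apart on opposite strands, were set against each other after their values had been seen, so the ratio is a description without a test. The log2 ratio of Tap1 to Psmb9 was -0.24 ± 0.831 in tdT- CTL and 0.91 ± 0.326 in tdT- LPS, and -0.45 ± 0.231 in tdT+ CTL and 1.17 ± 0.352 in tdT+ LPS (SD, n = 5). The tdT+ groups did not overlap (-0.78 to -0.25 in CTL and 0.67 to 1.65 in LPS). The tdT- groups overlapped, since CTL reached 0.71 and LPS began at 0.61.

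**Figure D3:**
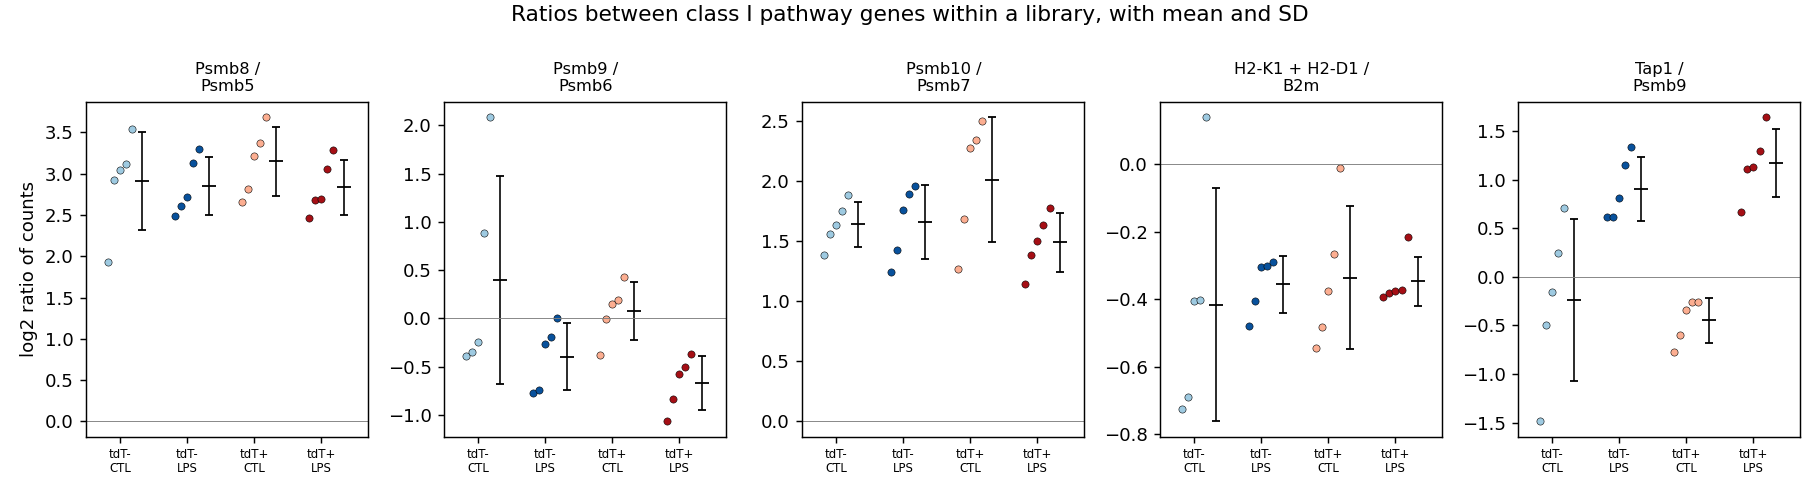
Log2 ratios of counts (y axes differ between panels) for the immunoproteasome subunits over their constitutive counterparts, the heavy chains over B2m, and Tap1 over Psmb9, in each library with the mean and SD of 5 mice. Psmb9 over Psmb6 averaged 0.076 in tdT+ CTL and -0.67 in tdT+ LPS, and Tap1 over Psmb9 averaged -0.45 and 1.17 in the same groups.

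Of 39 other genes of the class I route, 38 were tested, and in tdT- dCAMs the call was passed by 1 that rose and 4 that fell (7.2% and 4.27% of all genes tested). In tdT+ dCAMs 5 rose and 4 fell (3.37% and 2.52% of all genes tested). The nonclassical heavy chain H2-Q7 rose from 10.5 ± 6.5 to 43.5 ± 13 CPM in tdT- (log2 fold change 2.05, edgeR adjusted p 0.0105) and from 5.72 ± 2.12 to 34.9 ± 9.69 CPM in tdT+ dCAMs (2.61, edgeR adjusted p 0.0025). H2-Q6 rose in tdT+ dCAMs from 3.66 ± 2.46 to 37.6 ± 16.2 CPM (log2 fold change 3.36, edgeR adjusted p 0.0274). H2-Q7 and H2-Q6 are uncertain as single genes, since 34.9% and 32% of their windows of 50 transcript bases are shared with other genes.

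The activator Psme1/Psme2, which opens the proteasome, rose as well. Psme1 went from 196 ± 49.8 to 408 ± 61.5 CPM in tdT+ (log2 fold change 1.06, edgeR adjusted p 0.00244) and from 262 ± 55 to 441 ± 104 CPM in tdT- dCAMs (0.75, edgeR adjusted p 0.0221). Psme2 went from 158 ± 26 to 433 ± 95.4 CPM in tdT+ (log2 fold change 1.45, edgeR adjusted p 0.000106) and from 272 ± 46.8 to 501 ± 145 CPM in tdT- dCAMs (0.88, edgeR adjusted p 0.0083). For both genes the groups did not overlap in either population.

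The 4 genes that fell were the same in both populations. Among 4 class I-like molecules, Fcgrt, the neonatal Fc receptor chain, fell by 2.91 (tdT-) and by 3.25 (tdT+) on the log2 scale, Hfe, a regulator of iron uptake, fell by 1.97 and by 2.55, and Cd1d1, which presents lipids, fell by 3.06 and by 3.05. The largest edgeR adjusted p among these 6 values was 0.0266, that of Cd1d1 in tdT+ dCAMs. All of these pair with B2m, which rose. The transcription factor Irf1, known to act on class I promoters, fell by 1.07 in tdT- (409 ± 135 to 195 ± 37.5 CPM, edgeR adjusted p 0.00938) and by 1.35 in tdT+ dCAMs (449 ± 136 to 177 ± 58 CPM, edgeR adjusted p 0.00211).

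MHC class II went the other way. Of 10 class II genes 8 were called lower and 0 higher in each population (4.27% of all genes called lower in tdT- and 2.52% in tdT+), with a median log2 fold change of -2.81 in tdT- and -2.75 in tdT+ dCAMs. H2-Aa fell by 2.52 (tdT-) and by 2.46 (tdT+) and Cd74, the invariant chain, fell by 1.71 and by 1.58 on the log2 scale. Ciita measured 160 ± 216 CPM in tdT- CTL (the highest library at 543 CPM) and 5.76 ± 3.85 CPM in tdT- LPS, and 111 ± 31.1 CPM in tdT+ CTL and 0.489 ± 0.684 CPM in tdT+ LPS. Psmb9, Tap1, Psmb8 and Tap2 lie side by side between the class II genes H2-DMb1 and H2-Ob in the RefSeq gene order, and their log2 fold changes from -0.17 to 1.75 stood next to -3.86 and -4.39 for H2-DMb1. The summed border macrophage and B cell markers, given above, were lower with LPS too, without overlap in either population, as were those of dendritic cells at the median (1124 to 386 CPM in tdT- and 65.5 to 15.5 CPM in tdT+), and their part in the class II values was not tested.

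**Figure D4:**
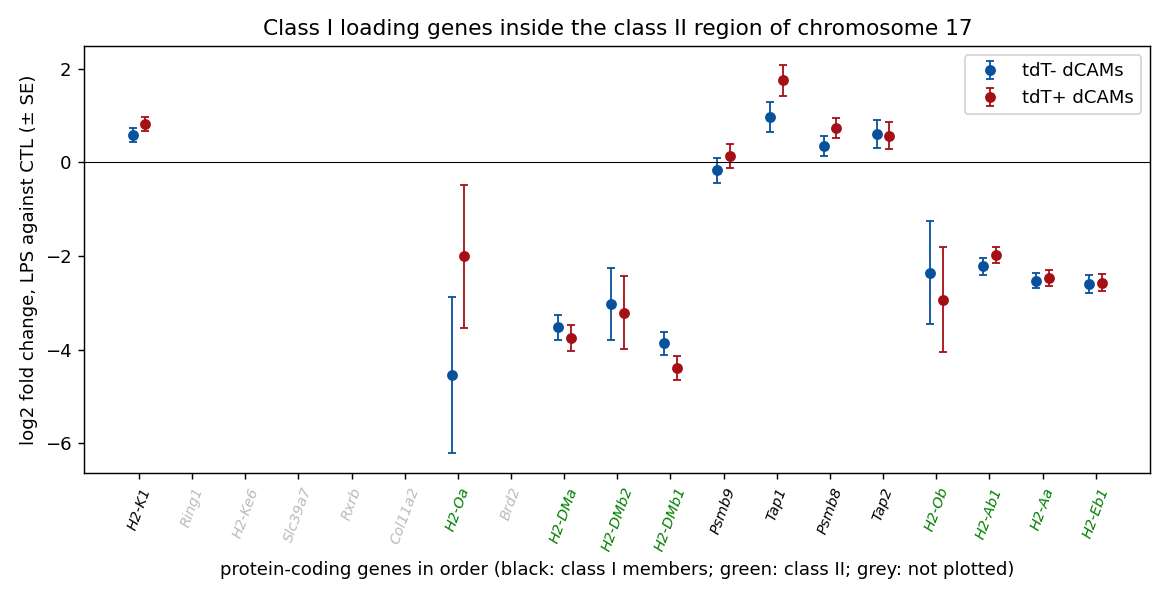
Log2 fold change of LPS against CTL with its SE (y axis) for class I members and class II genes in their order along chromosome 17 from H2-K1 to H2-Eb1 (x axis, order only), in tdT- and tdT+ dCAMs. Psmb9, Tap1, Psmb8 and Tap2 lie at or above -0.17 between class II genes that lie at -1.98 or below.

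Between the populations 0 members were called in CTL mice (4.28% of all genes called) and 0 in LPS mice (0.0301% of all genes called) with edgeR, and 0 and 0 with DESeq2. At an unadjusted p under 0.05 there were 6 members in CTL mice (23.5% of all genes) and 0 in LPS mice (5.41%). In CTL mice Tap1 was lower in the tdT+ than in the tdT- library in 5 of 5 mice (log2 fold change -0.89, 95% interval -1.55 to -0.23, edgeR adjusted p 0.109), and so was Psmb8 (-0.60, 95% interval -1.05 to -0.15, edgeR adjusted p 0.112). Tapbp was higher in tdT+ in 5 of 5 mice (0.55, 95% interval 0.13 to 0.97, edgeR adjusted p 0.117), as was Nlrc5 (1.70, 95% interval -0.48 to 3.88, edgeR adjusted p 0.35). With mouse as a replicate block, Nlrc5 passed the call in limma-voom (4.64, adjusted p 0.0157) and in the added limma fit on log2 CPM (4.05, adjusted p 0.0162), and 0 members passed it in edgeR with mouse as a fixed term. The median of all genes in those limma fits was 0.536 and 0.460. Nlrc5 had 0 counts in 2 of the 5 tdT- CTL libraries. Such a lower level in all 5 mice was seen in 3.61% of all genes, and a higher one in 5.85%. The tdT- CTL libraries are those with fewer genes detected and with the higher dendritic cell and monocyte marker sums, without overlap with tdT+ CTL in any of these, and the part of these in the differences was not tested.

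In LPS mice the log2 fold changes between the populations ran from -0.38 (Psmb9, 95% interval -0.91 to 0.16) to 0.44 (Nlrc5, 95% interval -1.68 to 2.56). H2-D1, Psmb8, Psmb9 and Psmb10 were lower in tdT+ in 5 of 5 mice, which was the case for 4.71% of all genes, and none passed the test.

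The LPS effect itself was compared between the populations. It differed for 0 of 10 members by the call with edgeR (1.26% of all genes called) and with DESeq2, and 0 members had an unadjusted p under 0.05 (13.1% of all genes). The difference (tdT+ minus tdT-) was 0.79 for Tap1 (95% interval -0.14 to 1.71, edgeR adjusted p 0.502) and -0.54 for Tapbp (95% interval -1.13 to 0.053, edgeR adjusted p 0.448), so that Tap1 being called in tdT+ and Tapbp in tdT- dCAMs is not a shown difference between them. For H2-K1, H2-D1 and B2m the differences were 0.23, -0.043 and 0.13, with 95% intervals of -0.20 to 0.67, -0.47 to 0.39 and -0.18 to 0.45.

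The genes whose log2 CPM most resembled the mean profile of the members over the 20 libraries were Rtp4 (Pearson r 0.944), Slfn1 (0.937), Psme1 (0.919), Ifi35 (0.915) and Txn1 (0.913) among the 5813 other genes whose log2 CPM averaged 4 or more. The libraries share treatment and depth, so these r describe a pattern across 2 treatments and carry no test. Rtp4 averaged 195 and 173 CPM in tdT- and tdT+ CTL and 524 and 524 CPM in tdT- and tdT+ LPS.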

How the data were processed

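RNA of sorted dCAMs was measured by bulk RNA sequencing of 20 libraries (low-input SMART-Seq mRNA LP kit, no unique molecular identifiers). The deposited values are raw counts of reads by gene, which the authors made with STAR 2.7.11a and featureCounts 2.0.6, as named in the submitters' processing notes, and the methods leave the genome build open between mm10 and GRCm39. Floors (3 counts) cover counting error only, whereas the 95% intervals come from the fit and include the spread between mice. Library totals ranged from 6017650 to 18925908 counts.

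Groups came from the labels. Genes with a total under 10 were removed, which left 16632 genes. After TMM scaling, all libraries entered 1 joint quasi-likelihood fit of edgeR 4.0.16 (R 4.3.3), with 1 mean per group, in 5 contrasts, and p was adjusted by Benjamini-Hochberg over all genes. The call needed an adjusted p under 0.05 together with a log2 change beyond 1 in either direction. CPM were TMM-scaled, ratios of counts used a pseudocount of 0.5 and exact two-sided permutation tests (252 permutations). The fit was tested on simulated data, where changes were recovered less often the smaller they were. Most changes of the smaller size simulated were missed, and that size was above that of every member except Nlrc5 in tdT- dCAMs. The changed genes were drawn from those whose log2 CPM averaged 4 or more, each with its own spread. The share missed is therefore not that of the members. Their SE for LPS against CTL in tdT- dCAMs ran from 0.106 (B2m) to 1.08 (Nlrc5). A count of 0 members called still does not show that they did not differ, and members that did not pass are given with their intervals. Alternatives used DESeq2 1.42.0, limma 3.58.1, other filters and scalings, thinning, and each mouse left out.

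The text names the members, the constitutive subunits, other listed genes that passed the call, up to 4 class II genes and the 5 most alike genes. Members and lists were chosen with earlier results of these data known. Same-numbered tdT+ and tdT- libraries come from the same mouse. The correlation of their deviations from the group means ranged from -0.0046 to 0.046 in CTL and from 0.23 to 0.45 in LPS mice. Mouse was left out of the main model, and titles also carry a letter (F or M) that was tried as a term.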

Additional observations from a re-analysis of the deposited data

Results flagged for a closer look

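In 3 of 40 sets of 5 libraries (10 members in 4 groups) a single library stood apart from the others by Dixon's criterion, which chance exceeds in about 1 of 20 sets. H2-D1 in the tdT- CTL library of mouse 174 was at 4598 CPM, with the next library at 2871 CPM. Tapbp in the tdT+ CTL library of mouse 174 was at 697 CPM, with the next at 477 CPM. Nlrc5 in the tdT- CTL library of mouse 178 was at 41.3 CPM, with the next at 5.38 CPM. The tdT- library of mouse 174 also had the highest sum of dendritic cell markers in its group (3329 CPM), whose part in the H2-D1 value was not tested.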

How the results depend on the processing

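In the LPS contrasts each member kept its direction in all 22 alternatives that give a value, 2 of them (limma on log2 CPM) chosen after seeing the data. At the call, 2 members instead of 1 passed in tdT- dCAMs with DESeq2, with both limma fits that have mouse as a replicate block and with limma and library weights, and 2 instead of 1 in tdT+ dCAMs with the 10 libraries of the comparison alone. In each case the gene added was Nlrc5, with log2 fold changes of 2.64, 5.54, 5.00 and 4.16 in tdT- and 1.31 in tdT+ dCAMs. Leaving out a mouse gave 1 to 2 members in tdT- dCAMs, where Nlrc5 (without mouse 178) or Tap1 (without mouse 175, 179 or 56) was added. Of the other class I genes, 5 in tdT- dCAMs became 8 (DESeq2), 2 (10 libraries alone), 12 (voom with the replicate block), 9 (limma with the replicate block) and 4 to 10 (a mouse left out, 10 without mouse 174 and 9 without mouse 178). The 9 in tdT+ dCAMs became 14 with voom quality weights and 14 with limma library weights, and 5 to 10 with a mouse left out (5 without mouse 61). Between populations in CTL mice, 1 member (Nlrc5) was called with either replicate block of limma, and 0 to 1 with a mouse left out (1 without mouse 178). The share of all genes called ranged from 5.25% to 27.2% in tdT- dCAMs (11.5% as reported) and from 3.96% to 19% in tdT+ dCAMs (5.89% as reported). In the limma and voom fits the median log2 fold change of all genes shifted as given above, and in tdT- dCAMs it then exceeded that of the members. The share of calls that were higher rose from 62.8% to between 76.5% and 87.2% in tdT-. The cause was not tested.

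The planned voom fit with a replicate block gave precision weights of up to 2.13e+12 over all genes (2.38e+11 for H2-D1) against a median of 0.424, on which its adjusted p-values for abundant genes rest. In it the tdT+ against tdT- difference in LPS mice turned to 0.0055 for H2-K1 and 0.083 for H2-D1 (adjusted p 7.21e-22), and the difference between LPS effects to 0.22 for H2-D1 and 0.055 for Tap2. Without voom weights, the limma fit with the paired libraries turned none of these 4.

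Values near 0 changed sign in other settings, each without passing the threshold. With library totals alone these were H2-D1 (0.0070) and Tap2 (0.013) between populations in CTL mice, Tapbp (-0.021) in LPS mice and Psmb10 (-0.038) in the difference between LPS effects. Psmb10 in that difference was also -0.0037 with mouse as a fixed term (replicate block) and -0.025 with the title letter as a term, and Tap2 was 0.12 with voom quality weights and 0.11 with limma library weights. With a mouse left out, the CTL population contrast ranged from -0.050 to 0.036 for H2-D1 and from -0.11 to 0.14 for Tap2, and the LPS population contrast from -0.043 to 0.048 for Tapbp. The difference between LPS effects then ranged from -0.0046 to 0.20 for B2m, from -0.19 to 0.030 for Tap2 and from -0.20 to 0.26 for Psmb10. The log2 ratio of Psmb10 to Psmb7 in tdT- dCAMs was -0.017 with thinned counts. Without a mouse it ranged from -0.061 to 0.12, Psmb8 to Psmb5 from -0.31 to 0.095, and the heavy chains to B2m from -0.017 to 0.20 in tdT- and from -0.064 to 0.070 in tdT+ dCAMs. All ratios stayed above an adjusted p of 0.05.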
